A study of Mus musculus with 6 samples.

Results

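The genes described here are 36 mouse genes of the unfolded protein response and the heat shock response, chosen by name and found among the 46603 gene identifiers of each count file. They comprise 6 sensors and transcription factors of the endoplasmic reticulum (ER) stress pathways, 2 targets of the transcription factor ATF4, 15 ER chaperones and folding enzymes, 9 cytosolic heat shock proteins, the heat shock factor Hsf1 and 3 mitochondrial heat shock proteins. RNA was sequenced from abdominal visceral adipose tissue of NM1 KO and wild-type (WT) C57/Bl6 mice, all 18 months old and listed with no treatment. NM1 is nuclear myosin 1, an isoform made from the Myo1c gene, and the labels do not give the allele or say which part of the gene is missing. There were 3 NM1 KO libraries and 3 WT libraries. The labels do not say whether each library came from a separate mouse, so the p-values below measure the spread between these libraries, which may be technical in part. Library totals ran from 27525446 to 33537818 counts in NM1 KO and from 24677758 to 31228723 counts in WT. All 36 genes passed the filter on low counts, which kept 15828 genes.

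Adipocyte marker genes were abundant in each library, with a summed level for 10 genes of 24228 to 29812 CPM (counts scaled to a common library size) in NM1 KO and 27541 to 29896 CPM in WT, so the tissue label matched its markers. The 8 markers of epididymis and testis were at 0 in each library. Myo1c had 452, 697 and 551 CPM in the NM1 KO libraries and 801, 759 and 801 CPM in the WT libraries, a log2 fold change of -0.47 ± 0.17 (SE) with an adjusted p of 0.151. That count takes in the other isoforms of the gene and so does not check the knockout. Without NM1 KO replicate 2 the same difference was -0.65 with an adjusted p of 0.0391, in a fit that called 473 of 16272 tested genes lower.

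When unfolded proteins build up in the ER, 3 membrane sensors start separate arms of the response. ATF6 is cut to release a transcription factor, IRE1 (gene Ern1) splices the Xbp1 messenger RNA so that it encodes an active factor, and PERK (gene Eif2ak3) phosphorylates the translation factor eIF2α, which favours translation of ATF4 and then production of CHOP (gene Ddit3). In the cytosol, HSF1 drives the heat shock proteins, while HSP60, HSP10 and mortalin (genes Hspd1, Hspe1 and Hspa9) fold proteins inside mitochondria. Adipocytes secrete proteins and hormones through the ER, and these pathways are studied there in obesity. Much of this signalling takes place by cleavage, splicing and phosphorylation, which gene-level counts do not measure.

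Promoter elements of these pathways are shown first. The genes were chosen by name from the same pathways, so the choice itself favours matches. The shares set beside those of all genes therefore cannot test enrichment and are given as a description. Matches to the elements did not divide the genes in the same way as the roles that order the results below. RefSeq promoter windows on GRCm38.p6, from 250 bases before to 50 after each transcript start, were found for 28 of the 36 genes. Atf6, Hsf1, Hsp90aa1, Hsp90ab1, Hspa8, Hspa9, Hyou1 and Manf had no window and were not searched. The ER stress response element, searched on both strands as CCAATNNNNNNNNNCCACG, was present in 7 of those 28 genes (25.0%), against 37 of 27025 genes in the whole table (0.137%). The 7 genes were Calr, Canx, Creld2, Dnajc3, Hsp90b1, Hspa5 and Pdia6. In the lines below each sequence runs 5′ to 3′ along the gene's strand, and the capitals mark the element. In Calr and Creld2 and in the second Hsp90b1 sequence it lies on the opposite strand and so reads from CGTGG to ATTGG.
Hspa5, chr2:34772020-34772048, plus strand: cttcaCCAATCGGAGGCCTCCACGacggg
Hsp90b1, chr10:86705633-86705661, minus strand: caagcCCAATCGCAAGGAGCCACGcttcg
Hsp90b1, chr10:86705528-86705556, minus strand: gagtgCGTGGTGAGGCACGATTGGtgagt
Canx, chr11:50325795-50325823, minus strand: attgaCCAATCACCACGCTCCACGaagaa
Pdia6, chr12:17266486-17266514, plus strand: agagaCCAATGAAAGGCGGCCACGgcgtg
Dnajc3, chr14:118937822-118937850, plus strand: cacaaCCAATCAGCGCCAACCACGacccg
Creld2, chr15:88819515-88819543, plus strand: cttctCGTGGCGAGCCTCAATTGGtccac
Calr, chr8:84847070-84847098, minus strand: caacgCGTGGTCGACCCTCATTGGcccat

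A shorter form of that element, ATTGGNCCACG, was present in Herpud1 and Dnajb11, 2 of 28 genes (7.14%), against 12 genes in the whole table (0.0444%). The heat shock element bound by HSF1, searched as GAANNTTCNNGAA or TTCNNGAANNTTC on both strands, was present in Hspd1, Hspe1 and Hsph1, 3 of 28 genes (10.7%) against 179 of all genes (0.662%). Hspd1 and Hspe1 lie head to head, so their windows hold the same stretch. The cytosolic genes Hspa1a, Hspa1b, Dnajb1, Hspb1 and Hspb8 were searched too and had no match to this spelling. The C/EBP-ATF response element read by ATF4 and CHOP, searched as TGATGNAA, was present in Asns, Herpud1 and Trib3, 3 of 28 genes (10.7%) against 1219 of all genes (4.51%). The unfolded protein response element, searched as TGACGTGG or TGACGTGA, was present in Hspa5 alone, 1 of 28 genes (3.57%) against 329 of all genes (1.22%), and did not overlap the longer element in that window. A match is a description of the letters and not of binding. The lines below give one example of each of the first 3 of these elements, with the element in capitals.
Herpud1, chr8:94386372-94386392, plus strand: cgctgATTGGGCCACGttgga
Hspd1, chr1:55088054-55088076, minus strand: ttccgGAAGGTTCTAGAAcggac
Asns, chr6:7693220-7693237, minus strand: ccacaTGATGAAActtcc

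One of the 36 genes passed the test. Atf6 rose in NM1 KO adipose tissue, by a log2 fold change of 0.56, and none of the 36 fell, with edgeR's quasi-likelihood test and a Benjamini-Hochberg adjusted p under 0.05 over 15828 genes. Among all tested genes 2.79% were called higher in NM1 KO and 1.47% lower, so 1 of 36 higher and 0 of 36 lower stood near the background. DESeq2 called 1 of the 36 higher and 2 lower, namely Xbp1 and Hsf1, and limma-voom with quality weights called 1 higher and 0 lower. Over all genes DESeq2 called 8.23% higher and 5.94% lower, and limma-voom 6.10% higher and 4.32% lower, so these counts too were near or below the background. At an unadjusted p under 0.05, 2 of the 36 genes were higher and 7 lower, where the background was 13.0% and 10.8% of all tested genes. The CPM ranges of the genotypes lay apart with NM1 KO higher in 2 genes, Atf6 and Eif2ak3, against a background of 14.9%. They lay apart with NM1 KO lower in 7 genes, against a background of 15.0%: Xbp1, Herpud1, Hspa1a, Hspa1b, Dnajb1, Hspb8 and Hsf1. Of the 36 log2 fold changes 9 were positive and 27 negative, with a median of -0.20, beside -0.0021 over all tested genes.

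**Figure D1:**
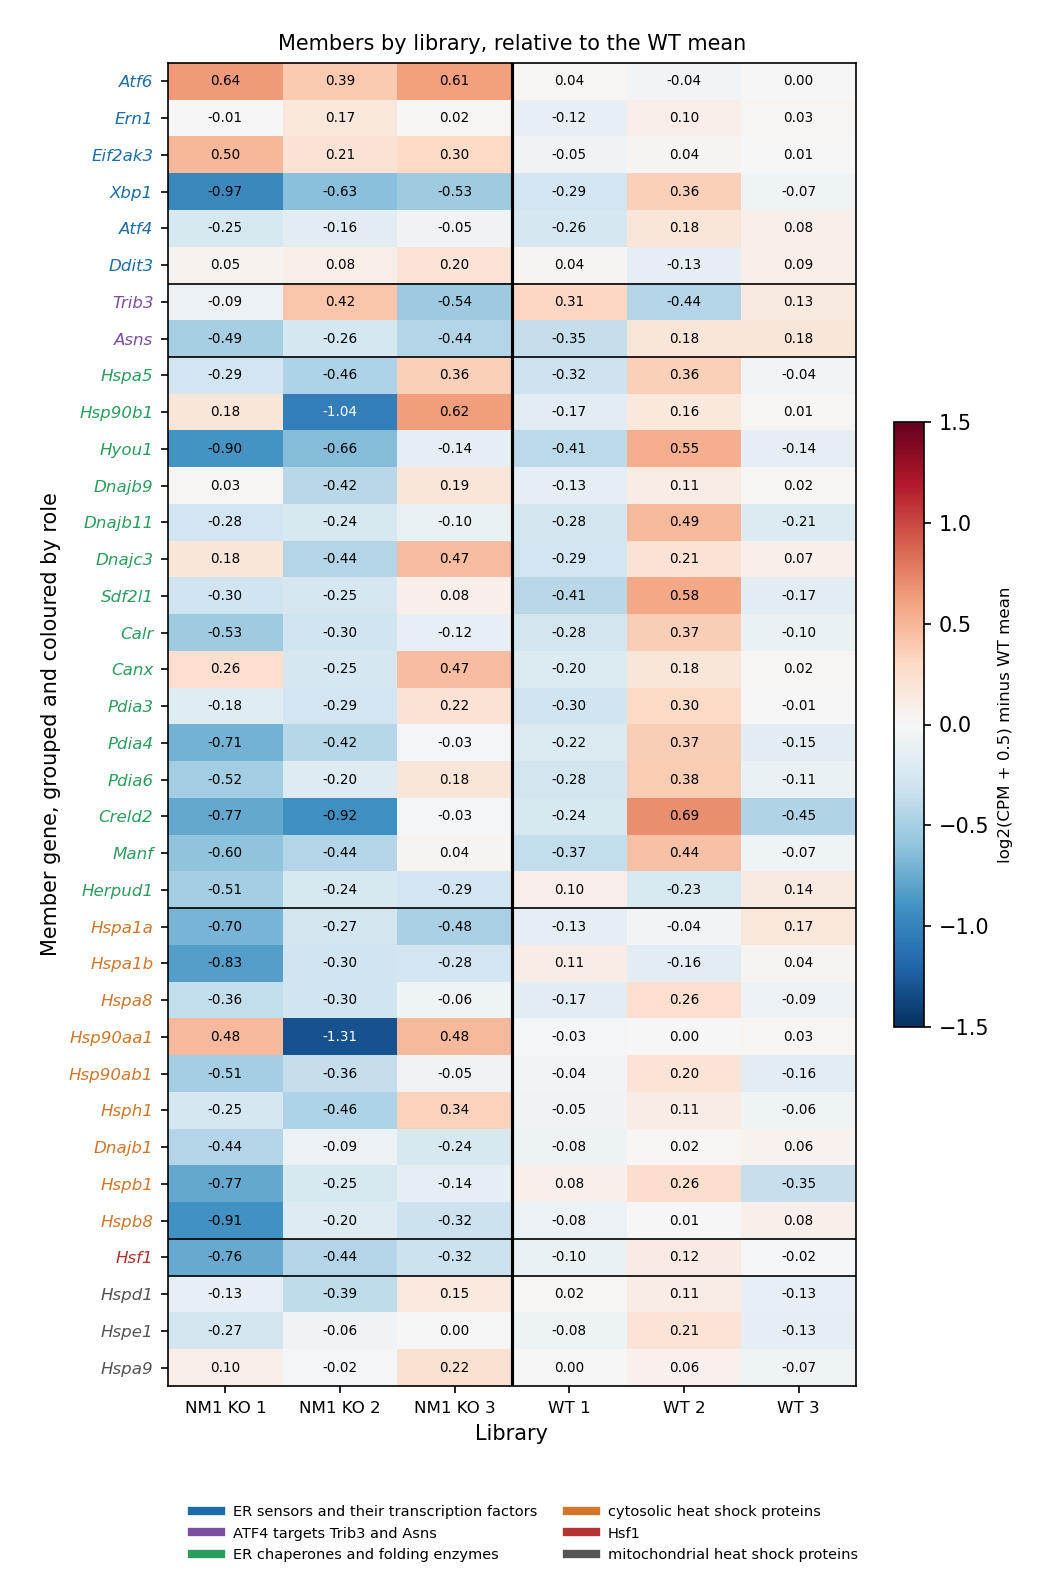
Each row is one of the 36 genes, grouped by role, and each column is a library, with the 3 NM1 KO libraries left of the 3 WT libraries; colour gives log2(CPM + 0.5) minus the WT mean. The ER chaperone rows are high in NM1 KO replicate 3 and in WT replicate 2, each the highest of its genotype in 14 of 15 genes.

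**Figure D2:**
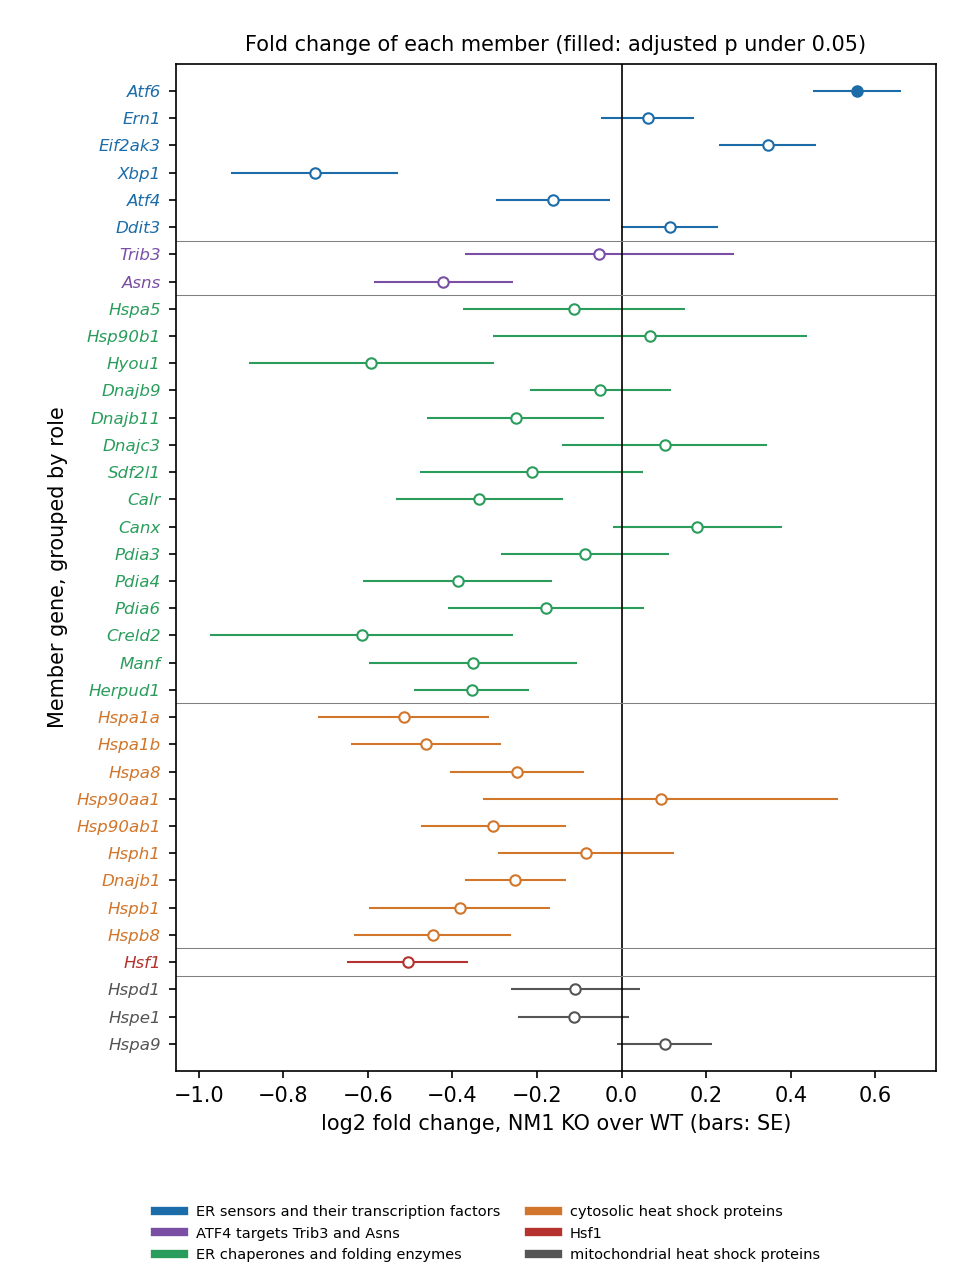
Points are log2 fold changes of NM1 KO over WT from edgeR's fit, with bars of 1 SE, for the 36 genes in the same order of roles; a filled point marks an adjusted p under 0.05. Atf6 is the single filled point at 0.56, and 27 of the 36 points lie below 0.

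Atf6, on chromosome 1 at 170704674 to 170867771 of GRCm38 (identifier ENSMUSG00000026663), encodes the sensor that is itself the precursor of a transcription factor. It had 88.1, 74.2 and 86.5 CPM in the NM1 KO libraries and 57.7, 54.8 and 56.5 CPM in the WT libraries. The lowest NM1 KO library stood above the highest WT library. The means were 82.9 ± 7.59 CPM in NM1 KO and 56.3 ± 1.45 CPM in WT (SD, n = 3 each), and the log2 difference was 0.56 ± 0.10 (SE), at an adjusted p of 0.0350 in edgeR and 0.000462 in DESeq2. The call was kept without NM1 KO replicate 2 (adjusted p 0.0176). It was lost without NM1 KO replicate 1 (0.0872), NM1 KO replicate 3 (0.112), WT replicate 1 (0.0975), WT replicate 2 (0.103) or WT replicate 3 (0.136), while the log2 fold change stayed between 0.53 and 0.63. After an offset for GC content and transcript length, fitted separately in each library, it was 0.31 (adjusted p 0.0889). In whole tissue, fewer cells of a type and less RNA per cell cannot be told apart, and this holds for each difference given here.

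The other sensors did not pass. Eif2ak3, which encodes PERK, had 40.9, 33.5 and 35.5 CPM in NM1 KO and 27.7, 29.7 and 29.1 CPM in WT. Its genotypes did not overlap either, with NM1 KO higher, but the log2 fold change of 0.35 ± 0.12 had an adjusted p of 0.130. Its exons share 485 bases with those of an antisense gene that drew 14 counts over the 6 libraries. Ern1, which encodes the splicing enzyme IRE1, had 40.2, 45.6 and 41.0 CPM in NM1 KO and 37.1, 43.2 and 41.1 CPM in WT, which overlapped, with a log2 fold change of 0.06 ± 0.11 (adjusted p 0.769).

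Among the transcription factors downstream of the sensors, Xbp1 had the largest log2 fold change in size of the 36 genes in the edgeR fit of all 6 libraries. It had 184, 232 and 248 CPM in the NM1 KO libraries and 294, 462 and 343 CPM in the WT libraries. Each NM1 KO library was below each WT library, and WT replicate 2 stood well above the other WT libraries. The means were 222 ± 33.5 CPM in NM1 KO and 366 ± 86.5 CPM in WT, a log2 difference of -0.73 ± 0.20, at an adjusted p of 0.0841 in edgeR and 0.00936 in DESeq2. Leaving out 1 library at a time moved the log2 fold change between -0.86 and -0.52. Gene-level counts add the spliced and unspliced forms of Xbp1 together. Plasma cells express much Xbp1, and 7 other plasma cell markers summed to 343, 88.8 and 164 CPM in NM1 KO and 190, 291 and 131 CPM in WT, which overlapped; their part in the Xbp1 level was not tested.

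Of Atf4, Ddit3, Trib3 and Asns, the 4 genes of the PERK arm among the 36 beside Eif2ak3, edgeR called 0. Over all tested genes it called 2.79% higher and 1.47% lower. Asns was lower at an unadjusted p under 0.05, as were 10.8% of all tested genes. Atf4 had 127, 135 and 146 CPM in NM1 KO and 126, 171 and 160 CPM in WT (log2 fold change -0.16 ± 0.14, adjusted p 0.510). Ddit3, which encodes the pro-apoptotic factor CHOP, had 26.9, 27.5 and 29.9 CPM in NM1 KO and 26.7, 23.6 and 27.6 CPM in WT (0.11 ± 0.12, adjusted p 0.592). Both genes overlapped between genotypes. Trib3, a pseudokinase induced by ATF4 and CHOP, had 7.31, 10.6 and 5.21 CPM in NM1 KO and 9.76, 5.63 and 8.62 CPM in WT (-0.05 ± 0.32, adjusted p 0.938). Asns, the asparagine synthetase gene whose promoter element is printed above, had 45.7, 53.7 and 47.3 CPM in NM1 KO and 50.4, 73.0 and 73.1 CPM in WT (-0.42 ± 0.16, adjusted p 0.180). Its genotypes overlapped through NM1 KO replicate 2 and WT replicate 1.

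**Figure D3:**
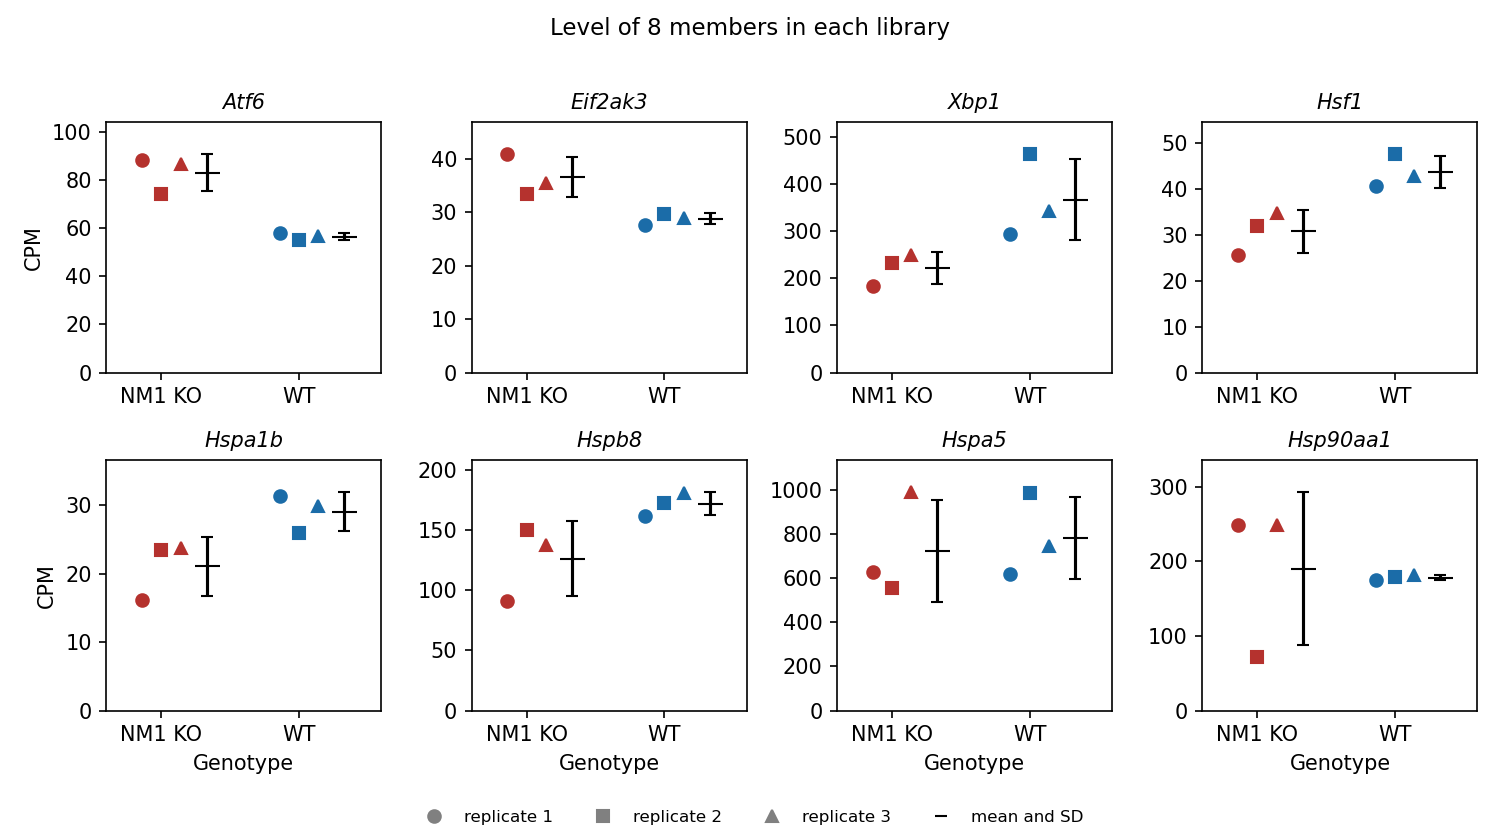
CPM of 8 of the genes in each library, with NM1 KO left of WT in each panel; marker shape gives the replicate number, and the black bar gives the mean ± SD of 3 libraries. Atf6 and Eif2ak3 lie higher in NM1 KO without overlap and Xbp1, Hsf1, Hspa1b and Hspb8 lower without overlap, while Hspa5 and Hsp90aa1 overlap, with NM1 KO replicate 2 at 71.5 CPM for Hsp90aa1.

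The count of ER chaperones and folding enzymes called was 0 in edgeR, 0 in DESeq2 and 0 in limma-voom, with 1 at an unadjusted p under 0.05. Of the 15, 3 log2 fold changes were positive and 12 negative, from -0.61 in Creld2 to 0.18 in Canx, with a median of -0.21. Hspa5, which encodes BiP, the ER chaperone that holds the sensors inactive, had 628, 558 and 990 CPM in NM1 KO and 618, 987 and 748 CPM in WT. The genotypes overlapped fully at the top, with 1 library near 990 CPM in each. The log2 fold change was -0.11 ± 0.26 (adjusted p 0.830). Hsp90b1, the ER form of HSP90, had 385, 166 and 526 CPM in NM1 KO and 302, 381 and 344 CPM in WT (0.07 ± 0.37, adjusted p 0.931), with NM1 KO replicate 2 the lowest of the 6 libraries. The Hsp90b1 exons share 415 bases with those of an antisense gene that drew 587 counts over the 6 libraries. Hsp90b1 itself had 5439 to 14423 counts in each library.

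Herpud1, a membrane protein of ER-associated degradation, was the one gene of this group with an unadjusted p under 0.05. It had 72.1, 87.3 and 84.1 CPM in NM1 KO and 110, 87.6 and 114 CPM in WT. The genotypes did not overlap, but NM1 KO replicate 2 and WT replicate 2 nearly met. The log2 fold change was -0.35 ± 0.14 (adjusted p 0.174). Hyou1, a large HSP70-like chaperone of the ER, averaged 134 ± 37.2 CPM in NM1 KO and 202 ± 72.7 CPM in WT (-0.59 ± 0.29, adjusted p 0.267). The secreted chaperone-like protein Creld2 averaged 45.5 ± 16.3 CPM in NM1 KO and 69.6 ± 31.7 CPM in WT (-0.61 ± 0.36, adjusted p 0.345). For both genes the SD over the WT libraries exceeded the difference between the means.

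The other ER genes did not pass and had an unadjusted p above 0.05. For the lectin chaperones of glycoproteins the log2 fold change was -0.34 ± 0.20 for Calr (adjusted p 0.349) and 0.18 ± 0.20 for Canx (0.629). Among the disulfide isomerases the log2 fold change was -0.09 for Pdia3, -0.39 for Pdia4 and -0.18 for Pdia6. Among the J-domain co-chaperones, which bring substrates to BiP, it was -0.05 for Dnajb9, -0.25 for Dnajb11 and 0.10 for Dnajc3. Sdf2l1, a partner of those co-chaperones, had -0.21, and the ER-resident neurotrophic factor Manf had -0.35. For these 8 genes and Calr the CPM ranges of the genotypes overlapped, as they did for Canx.

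What the ER chaperones shared was a library pattern within each genotype. NM1 KO replicate 3 was the highest NM1 KO library in 14 of 15 of them (93.3%), against 24.1% of all tested genes, and WT replicate 2 was the highest WT library in 14 of 15 (93.3%), against 35.9% of all tested genes. Herpud1 was the exception both times. The pattern was not theirs alone. The counts for these 2 libraries were 3 of 3 and 3 of 3 in the mitochondrial heat shock proteins and 6 of 9 and 4 of 9 in the cytosolic ones. Over all 36 genes they were 27 and 26. The summed level of the ER chaperones was 3396, 3118 and 4724 CPM in NM1 KO and 3432, 5197 and 3968 CPM in WT. The median of their log2(CPM + 0.5) minus the WT mean was -0.30, -0.42 and 0.08 in NM1 KO and -0.28, 0.37 and -0.07 in WT. Libraries of the same genotype thus lay further apart than the difference between genotypes, and the sign of the group's median depended on them. Without WT replicate 2 the median log2 fold change was 0.04, without NM1 KO replicate 3 it was -0.38, and with limma-voom quality weights it was 0.08. The genes were measured in the same 6 libraries and are not independent observations.

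Other lists followed this pattern in part. Of 20 further ER folding genes, such as the isomerase and glycosylation enzymes, 17 were highest in WT replicate 2 among WT libraries but 6 were highest in NM1 KO replicate 3 among NM1 KO libraries. Of the 8 subunits of the cytosolic chaperonin CCT it was 8 and 3, and of 15 genes of translocation into the ER it was 12 and 6. Immediate-early genes, which respond to handling and stimulation of tissue, summed to 446, 484 and 438 CPM in NM1 KO and 402, 634 and 425 CPM in WT, so they too were highest in WT replicate 2. Their part in the chaperone pattern was not tested.

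Of the 9 cytosolic heat shock proteins 0 were called, whether by edgeR, by DESeq2 or by limma-voom. The shares of all genes called are those given above for the ER chaperones. At an unadjusted p under 0.05, 3 of the 9 were lower, beside 10.8% of all tested genes. Of the log2 fold changes 8 were negative, with a median of -0.30. Their regulator Hsf1, on chromosome 15 at 76477422 to 76501913 of GRCm38, had 25.6, 32.0 and 34.9 CPM in NM1 KO and 40.7, 47.6 and 43.0 CPM in WT. The genotypes did not overlap, with NM1 KO lower in each library. The means were 30.8 ± 4.73 CPM in NM1 KO and 43.8 ± 3.52 CPM in WT, and the log2 difference was -0.51 ± 0.14, at an adjusted p of 0.0908 in edgeR and 0.0240 in DESeq2.

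Hspa1a and Hspa1b, neighbouring copies that encode the stress-inducible HSP70, are near-identical, with 60.4% and 62.3% of their 50-base words found in transcripts of other genes, so reads can be split or lost between them. Hspa1a had 4.67, 6.44 and 5.50 CPM in NM1 KO and 7.14, 7.67 and 8.94 CPM in WT (log2 fold change -0.51 ± 0.20, adjusted p 0.182). Hspa1b had 16.1, 23.5 and 23.7 CPM in NM1 KO and 31.4, 25.9 and 29.9 CPM in WT (-0.46 ± 0.18, adjusted p 0.173). Each copy was lower in each NM1 KO library than in each WT library. Added together they had 20.8, 29.9 and 29.2 CPM in NM1 KO and 38.5, 33.6 and 38.8 CPM in WT, with means of 26.6 ± 5.09 CPM in NM1 KO and 37.0 ± 2.93 CPM in WT. Since each copy lay apart between the genotypes, the sum had to as well. A two-sided exact permutation test of that sum could therefore only give p = 0.1, the smallest that 3 against 3 libraries allow. With the GC and length offset the log2 fold changes shrank to -0.27 for Hspa1a and -0.22 for Hspa1b.

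The small heat shock protein Hspb8, a partner of selective autophagy, had 91.0, 150 and 138 CPM in NM1 KO and 162, 173 and 181 CPM in WT. The genotypes did not overlap, and NM1 KO replicate 1 was well below the rest. The log2 fold change was -0.45 ± 0.19 (adjusted p 0.202). The HSP40 co-chaperone Dnajb1 had 44.1, 56.5 and 50.6 CPM in NM1 KO and 56.9, 60.8 and 62.4 CPM in WT (-0.25 ± 0.12, adjusted p 0.252), with a small gap between genotypes. Hspb1, another small heat shock protein, had -0.38 ± 0.21 (adjusted p 0.324), and 48.8% of its 50-base words occur in transcripts of other genes, chiefly a pseudogene.

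The constitutive chaperones were far more abundant. Hspa8, the housekeeping HSC70, had 604, 631 and 746 CPM in NM1 KO and 692, 929 and 730 CPM in WT (-0.25 ± 0.16, adjusted p 0.385), which overlapped. Hsp90ab1, the constitutive HSP90, had -0.30 ± 0.17 (adjusted p 0.328), and the HSP70 nucleotide exchange factor Hsph1 had -0.08 ± 0.21 (0.841). Hsp90aa1, the inducible HSP90, had 249, 71.5 and 249 CPM in NM1 KO and 174, 178 and 181 CPM in WT. The WT libraries nearly coincided, while NM1 KO replicates 1 and 3 were above them and NM1 KO replicate 2 was below them. The log2 fold change of 0.09 ± 0.42 (adjusted p 0.916) rested on that library, and without NM1 KO replicate 2 it was 0.48 with an adjusted p of 0.0330. That fit called 1181 of 16272 tested genes higher. With all 6 libraries and the GC and length offset the log2 fold change of Hsp90aa1 was -0.048. Hsp90aa1 and Hspa8 also share sequence with other genes, at 47.5% and 38.6% of their 50-base words.

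Within the cytosolic group NM1 KO replicate 1 was the lowest NM1 KO library in 7 of 9 genes, against 38.3% of all tested genes. The group's median log2(CPM + 0.5) minus the WT mean was -0.51, -0.30 and -0.14 in NM1 KO and -0.05, 0.02 and 0.03 in WT. All 3 NM1 KO medians were below all 3 WT medians, in contrast to the ER chaperones, where they overlapped. That difference between the groups was not tested.

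The 3 mitochondrial heat shock proteins had log2 fold changes between -0.11 and 0.10. An unadjusted p under 0.05 was found in 0 of them, beside 13.0% of all tested genes higher and 10.8% lower. Hspd1, the chaperonin HSP60, had 203, 170 and 246 CPM in NM1 KO and 226, 239 and 204 CPM in WT (-0.11 ± 0.15, adjusted p 0.704). Its partner Hspe1 (HSP10) had 78.2, 90.8 and 94.5 CPM in NM1 KO and 89.5, 109 and 86.2 CPM in WT (-0.11 ± 0.13, adjusted p 0.641). The exons of this head-to-head pair overlap by 112 bases on opposite strands, and the labels do not say whether counting used the strand. Hspa9, the mitochondrial HSP70 mortalin, had 429, 396 and 469 CPM in NM1 KO and 402, 419 and 384 CPM in WT (0.10 ± 0.11, adjusted p 0.622). All 3 genes overlapped between genotypes.

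Per kilobase of exon the levels spanned a wide range in both genotypes. Hsp90ab1 was highest at 406 CPM per kilobase in NM1 KO and 500 in WT, followed by Calr at 237 in NM1 KO and 299 in WT. Hspa5 stood at 171 in NM1 KO and 185 in WT, Pdia3 at 154 in NM1 KO and 164 in WT, and Hspa8 at 153 in NM1 KO and 182 in WT, levels that do not differ beyond the spread between libraries. In WT the lowest 4 were Hspa1a, Trib3, Eif2ak3 and Ern1, with Hspa1a at 1.87 in NM1 KO and 2.67 in WT, Trib3 at 3.62 in NM1 KO and 3.77 in WT, Eif2ak3 at 6.08 in NM1 KO and 4.78 in WT, and Ern1 at 5.17 in NM1 KO and 4.95 in WT.

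Ratios within a library do not depend on its scaling, and 3 were compared. The log2 ratio of Hsp90aa1 to Hsp90ab1, the inducible over the constitutive HSP90, was -2.07, -4.02 and -2.53 in NM1 KO and -3.06, -3.27 and -2.88 in WT, a difference of 0.19. That of Dnajb9 to Hspa5 differed by 0.06, and that of Hspa5 to Hspa8, the ER over the cytosolic HSP70, by 0.11. Two-sided exact permutation tests gave p = 0.8 for the first, 0.8 for the second and 0.7 for the third, each 0.8 after Benjamini-Hochberg adjustment over the 3 ratios, in a design that cannot go below 0.1. Leaving out 1 library at a time moved the HSP90 difference between -0.21 and 0.76, the upper value without NM1 KO replicate 2.

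Libraries differed in how level followed GC content, and its part in the differences given above was not tested. Across 13933 protein-coding genes the rank correlation of a gene's deviation from its mean over the 6 libraries with the GC content of its longest transcript was -0.44, 0.25 and -0.47 in the NM1 KO libraries and 0.36, 0.26 and 0.15 in the WT libraries. The genotype difference had a rank correlation with GC content of -0.37 over those genes and -0.65 over the 36, as a description over genes that share the same 6 libraries. In 5 of the 36 genes GC content was under 45%, a limit set after the values were seen: Dnajb9, Hsp90b1, Canx, Dnajc3 and Hsp90aa1. NM1 KO replicate 2 was the lowest of the 6 libraries in 5 of these 5, and in 4 of the other 31. With the GC and length offset the median log2 fold change of the 36 genes was -0.17, with Xbp1 at -0.58 (adjusted p 0.118), Hsf1 at -0.47 (0.109) and Eif2ak3 at 0.36 (0.183).

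**Figure D4:**
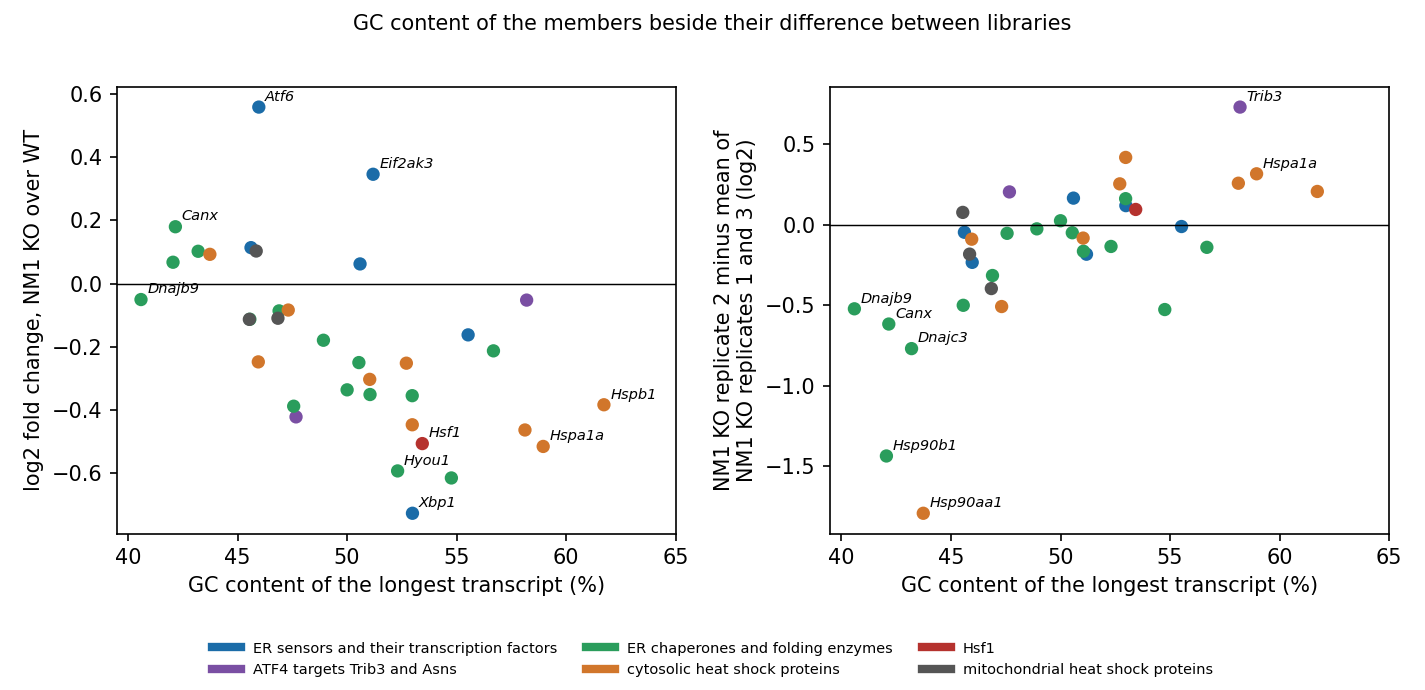
Both panels have the GC content of each gene's longest transcript on the horizontal axis, with 1 point for each of the 36 genes, coloured by role. Left, log2 fold change of NM1 KO over WT, which falls with GC content (rank correlation -0.65); right, log2 level in NM1 KO replicate 2 minus the mean of NM1 KO replicates 1 and 3, which climbs with GC content (0.68) and is lowest in Hsp90aa1 and Hsp90b1.

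Markers of some cell types other than adipocytes moved with genotype, and their part in the results above was not tested. The 10 macrophage markers summed to 4692 to 5874 CPM in NM1 KO and 2472 to 3335 CPM in WT, with 4 of 10 called higher in edgeR, beside 2.79% of all tested genes, and none at 0. The 10 markers of lipid-associated macrophages summed to 7732 to 13490 CPM in NM1 KO and 4705 to 6133 CPM in WT, with 6 of 10 called higher. The 12 endothelial markers summed to 488 to 727 CPM in NM1 KO and 1199 to 1608 CPM in WT, with 7 of 12 called lower, beside 1.47% of all tested genes. In the other lists edgeR called fewer. It called 1 of 8 mural and 2 of 8 mesothelial markers lower, and 2 of 9 progenitor and 1 of 7 T cell markers higher. It called 0 of 5 B cell, 0 of 8 plasma cell (Xbp1 included), 0 of 4 tested neutrophil and 0 of 6 erythroid markers. The 6 erythroid markers summed to 437 to 849 CPM in NM1 KO and 993 to 1103 CPM in WT. In 6 of 6 the CPM ranges lay apart with NM1 KO lower, beside 15.0% of all tested genes. DESeq2 called lower 2 of 8 mural, 4 of 8 mesothelial, 2 of 4 tested neutrophil and 4 of 6 erythroid markers, beside 5.94%. It called 0 of these higher. For the same lists limma-voom called 2, 2, 0 and 1 lower, beside 4.32%. Of the 10 adipocyte markers edgeR called 0. DESeq2 called 1 higher and 2 lower, beside 8.23% and 5.94% of all genes. Limma-voom with quality weights called 0 higher and 1 lower, beside 6.10% and 4.32%. In 4 of 10 the CPM ranges lay apart with NM1 KO lower, beside 15.0% of all tested genes. In 1 of 10 they lay apart with NM1 KO higher, beside 14.9%.

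Among 153 other genes of these pathways 148 were tested, and 3 rose in NM1 KO (Atf3, Gdf15 and Sel1l) while 0 fell, beside the background of 2.79% and 1.47%. At an unadjusted p under 0.05, 13 were higher and 9 lower, beside 13.0% and 10.8% of all tested genes. DESeq2 called 10 higher and 4 lower, and limma-voom with quality weights 9 higher and 1 lower, where the shares over all genes were 8.23% and 5.94% for DESeq2 and 6.10% and 4.32% for limma-voom. Each of these counts, as a share of 148, is at or below its background. The median log2 fold change of the 148 genes was -0.01. Both Atf3 and Gdf15 belong to the list of 26 genes of the integrated stress response, the branch that PERK shares with other eIF2α kinases, and that list's median was 0.05.

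Atf3, a stress-induced transcription factor that also counts as an immediate-early gene, had 84.1, 61.6 and 42.5 CPM in NM1 KO and 24.3, 28.0 and 17.0 CPM in WT. Each NM1 KO library was above each WT library. The log2 fold change was 1.44 ± 0.28 (adjusted p 0.0408). It kept its call after the GC and length offset (0.0327) and without NM1 KO replicate 2 (0.0483). The call was lost without NM1 KO replicate 1 (0.0774), NM1 KO replicate 3 (0.0644), WT replicate 1 (0.110), WT replicate 2 (0.0945) or WT replicate 3 (0.136).

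Gdf15, a secreted stress cytokine, had 14.5, 7.05 and 8.34 CPM in NM1 KO and 2.14, 2.91 and 1.68 CPM in WT, again without overlap. Its log2 fold change was 2.15 ± 0.35 (adjusted p 0.0287, or 0.0252 under the offset for GC content and length). The call was lost without NM1 KO replicate 3 (0.0757), WT replicate 1 (0.0866), WT replicate 2 (0.0706) or WT replicate 3 (0.113) and with the replicate block (0.0596), and kept without either other NM1 KO library. Macrophages also express Atf3 and Gdf15, and the macrophage markers given above were higher in NM1 KO too; their part in these differences was not tested.

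Sel1l, the adaptor of the HRD1 ubiquitin ligase in ER-associated degradation, had 230, 235 and 220 CPM in NM1 KO and 177, 164 and 160 CPM in WT. The genotypes stood apart with little spread, for a log2 fold change of 0.45 ± 0.10 (adjusted p 0.0467). With the GC and length offset it was 0.26 (0.135). The call was kept without NM1 KO replicate 2 (0.0493) and lost without NM1 KO replicate 1 (0.111), NM1 KO replicate 3 (0.117), WT replicate 1 (0.104), WT replicate 2 (0.118) or WT replicate 3 (0.170). It was also lost with upper-quartile scaling (0.0696), with library totals alone (0.0524), with no filter on low counts (0.0605) and with the replicate block (0.0823). Over the 18 tested genes of ER-associated degradation the median was 0.02.

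In the remaining lists edgeR called 0 genes, and the gene with the smallest p in edgeR is named for each. DESeq2 called higher 1 of 20 ER folding genes, 2 of 11 tested ER membrane factors and their partners, and 1 of 5 tested small heat shock proteins. The DESeq2 share over all genes was 8.23% higher. It called lower 1 of 27 tested co-chaperones and 1 of 15 mitochondrial genes, beside 5.94% of all genes. Limma-voom with quality weights called 1 higher in each of the first 3 of these lists, beside 6.10% of all genes. Uggt1, the glucosyltransferase that checks glycoprotein folding, differed by 0.51 on the log2 scale (adjusted p 0.0625) among 20 ER folding genes with a median of 0.03. Map3k5, a kinase downstream of IRE1, had 0.47 (0.0659), in a list with a median of 0.05. Hspb2, a small heat shock protein of muscle, had 0.90 (0.0608) among 5 tested genes of 8. Stub1, the ubiquitin ligase CHIP that works with HSP70, had -0.31 (0.112) among 27 tested co-chaperones, of which 7 had a positive log2 fold change and whose median was -0.16. Clpp, the mitochondrial protease, had -0.33 (0.135) among 15 genes of mitochondrial protein quality control with a median of -0.004. The smallest p belonged to Srprb (-0.30, adjusted p 0.220) in translocation, to Cct7 (-0.19, 0.451) in the chaperonin and to Hsf4 (-0.29, 0.465) among the other heat shock factors.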

How the data were processed

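Each library came as a table of raw counts per Ensembl gene, deposited by the authors. Per the submitters' processing notes, reads were trimmed with Trimmomatic 0.36, checked with FastQC, aligned with HISAT2 2.0.4 to GRCm38/mm10, handled with SAMtools 0.1.19 and counted with HTSeq. A NEBNext Ultra II kit and a NextSeq instrument were used, per the labels' protocols. Neither the annotation nor the strand setting of the counting is stated there.

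Identifiers were matched to the GENCODE annotation of GRCm38: 46091 of 46603 matched, and the other 512 held 0.0333% of counts. Genes with too few counts were removed with filterByExpr, which left 15828. Counts were scaled by TMM and NM1 KO was compared with WT by edgeR's quasi-likelihood F test (robust, genotype only, 3 libraries each; edgeR 4.0.16, R 4.3.3), two-sided, with Benjamini-Hochberg adjustment over all tested genes and a threshold of 0.05. CPM use the TMM-scaled totals, and group values are mean ± SD of 3 libraries. The typical spread between libraries of a genotype was a biological coefficient of variation of 25.3%. The fit was tested on simulated data with that spread for each gene. It recovered 36.7% of simulated 2-fold changes and 98.0% of 4-fold changes. A gene that was not called may therefore still differ by 2-fold. Since genes differ in their spread, these shares set no upper limit on a difference that was missed. Alternatives were DESeq2 1.42.0, limma-voom with quality weights (limma 3.58.1), other scalings and filters, protein-coding genes only, the replicate number as a block, an offset for GC content and length (splines with 5 degrees of freedom), and leaving out each library. Group medians by library use a pseudocount of 0.5 CPM. Ratios were compared by exact permutation. Promoters come from RefSeq on GRCm38.p6. Protein sequences were not used here.

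The 36 genes, the lists and the tests were chosen with earlier results of these data known. All 36 are named; values in every library are given for those called, those with an unadjusted p under 0.05, the smallest p of each role and a short fixed list, with Dnajb1, Hsp90b1, Ern1, Eif2ak3 and the sum of the Hspa1 copies added. From each other list the genes called are named, otherwise the one with the smallest p.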

Additional observations from a re-analysis of the deposited data

How the results depend on the processing

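Of 648 log2 fold changes of the 36 genes over 18 alternatives, 44 changed sign, in 14 genes; 22 genes kept their sign under each. Genes called numbered 673 (65.5% higher), 336 with the replicate block (76.8% higher), 2239 with DESeq2 and 1648 with limma-voom. They ran from 1 to 1654 when 1 library was left out: 244, 1654 and 5 without NM1 KO replicates 1, 2 and 3, and 37, 4 and 1 without WT replicates 1, 2 and 3. Of the 36 genes, the number called higher was 1, but 0 with the replicate block (Atf6 adjusted p 0.0622), with the GC and length offset and with both, and 0 to 2 when 1 library was left out. The number called lower was 0, but 2 with DESeq2. The cause of these shifts was not tested. Deviations from the genotype mean had correlations of -0.060, -0.035 and 0.188 between same-numbered libraries. Between differently numbered libraries they ran from -0.097 to 0.112. With 3 libraries a genotype these correlations cannot decide whether same-numbered libraries were paired. The signs that changed were, with the GC and length offset and then also with the replicate block, Ern1 -0.035 and -0.029, Atf4 0.055 and 0.061, Trib3 0.17 and 0.17, Hsp90b1 -0.094 and -0.18, Dnajc3 -0.058 and -0.064, Sdf2l1 0.044 and 0.081, and Hsp90aa1 -0.048 and -0.20. With the replicate block alone they were Hsp90b1 -0.066 and Hsp90aa1 -0.097. With limma-voom they were Hspa5 0.20, Dnajb9 0.096, Sdf2l1 0.090, Pdia3 0.14, Pdia6 0.079, Hsph1 0.14 and Hspd1 0.049. Leaving out 1 library gave ranges of -0.35 to 0.17 in Trib3, -0.40 to 0.087 in Hspa5, -0.31 to 0.41 in Hsp90b1, -0.18 to 0.11 in Dnajb9, -0.39 to 0.038 in Dnajb11, -0.11 to 0.32 in Dnajc3, -0.41 to 0.15 in Sdf2l1, -0.25 to 0.080 in Pdia3, -0.38 to 0.038 in Pdia6, -0.15 to 0.48 in Hsp90aa1, -0.35 to 0.076 in Hsph1 and -0.25 to 0.013 in Hspd1. With 3 libraries a genotype, calls near the threshold depended on single libraries; the smallest library held 24677758 counts.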
